A study of Mus musculus with 12 samples.

Results

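The 34 genes described here encode components, regulators and receptors of the complement system and were measured in mouse kidney by RNA sequencing. They were taken by gene symbol from a list of complement genes, and all 34 were found among the 40213 genes listed for each library. Of these, 32 passed the filter on low counts and were tested with 17841 genes in all. Fcna and Vsig4 did not pass and are given as counts. Masp2 passed only through the control libraries and Hc, which encodes C5, only through the adenine-fed groups. Fewer than 4 control libraries reached the filter's minimum for C6 and Vtn (2 each), C5ar1 and C4a (3 each) and C5ar2 (1). Libraries of the adenine-fed groups were thus needed for these to pass as well.

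All mice were C57BL/6, and each group had 4 libraries of whole kidney RNA. The CKD with colchicine group received colchicine, an alkaloid that binds tubulin, by intraperitoneal injection at 0.3 mg/kg/day together with adenine in the diet. The CKD group received saline injections and a 2% adenine diet, which injures tubules by crystals and serves as a model of chronic kidney disease (CKD). The control group received saline injections and a normal diet. The labels give the adenine content of the colchicine group as 2, 3, 4 and 5% for replicates 1, 2, 3 and 4, although the design text describes a single adenine model. Only colchicine replicate 1 therefore matches the CKD group in labelled diet, and for the other replicates colchicine and labelled adenine cannot be told apart. The labels name neither sex nor age. They call the libraries biological replicates but tie none to an animal, and the p-values rest on the spread between libraries.

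Complement is a cascade of plasma and tissue proteins. The classical route begins when C1q binds antibody or injured surfaces, the lectin route when collectins or ficolins bind sugars, and the alternative route runs continuously on C3 itself. All lead to cleavage of C3 and then of C5, which releases the peptides C3a and C5a and assembles the membrane attack complex from C5b, C6, C7, C8 and C9. Soluble and membrane-bound regulators limit the cascade on host cells. Most circulating complement is made in the liver, while tubular cells, fibroblasts and macrophages of the kidney are known local sources. The transcripts measured here say nothing of protein or of cleavage.

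Library totals ranged from 23.9 to 38.3 M counts (1 M is 1000000) in CKD with colchicine, from 22.2 to 27.4 M in CKD and from 22.6 to 31.7 M in control. Mitochondrially encoded transcripts took 14.6 to 21.8% of counts in CKD with colchicine, 16.7 to 17.3% in CKD and 41.5 to 46.7% in control. Values are given as counts per 1000000 (CPM) after TMM scaling, which sets the libraries to a common level using most genes. The labelled tissue was checked by its markers: 10 proximal tubule markers summed to 577 to 935 CPM in CKD with colchicine, 967 to 1249 CPM in CKD and 33650 to 36513 CPM in control. The highest of them, Kap, averaged 127 ± 78.9, 144 ± 21.6 and 24691 ± 1189 CPM in those groups (SD, n = 4). The 15 macrophage markers listed, of which Timd4 was at 0 in 3 control libraries, summed to 1037 to 1502 CPM in CKD with colchicine, 1604 to 1685 CPM in CKD and 196 to 208 CPM in control; the highest, Lyz2, averaged 588 ± 142, 858 ± 18.9 and 19.7 ± 2.86 CPM. The counts come from bulk tissue, so fewer cells of a type and less RNA per cell cannot be told apart.

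Complement transcripts differed widely between CKD and control kidney. In edgeR's quasi-likelihood test, with p-values adjusted over all genes tested and a threshold of 0.05, 20 of the 32 members tested were higher in CKD and 8 were lower, while 4 were not called. The higher members made up 62.5% of the 32, where 34.1% of all genes tested were higher. The lower members made up 25% of the 32, where 33.4% of all genes were lower. Members called either way came to 87.5%, against 67.4% of all genes. The CKD and control libraries did not overlap for 28 of the 32 members, while 66.2% of all genes tested did not overlap. The median log2 fold change was 2.55 over the members and 0.04 over all genes tested. With library totals alone in place of TMM, 23 members were higher and 5 lower, which is 71.9 and 15.6% of the 32, where 74.0 and 10.4% of all genes were higher and lower. With upper-quartile scaling 62.5% of the members were higher, where 39.9% of all genes were higher. By TMM without mitochondrial transcripts the shares were 62.5 and 34.4%. The share of higher members above the background was thus seen by TMM, with or without mitochondrial transcripts, and with upper-quartile scaling. It was not seen with library totals. Without Masp2 and Hc, which passed the filter through 1 side of the comparison only, 19 of 30 members were higher and 7 lower. These counts still hold C6, C5ar1 and C5ar2 among the higher and C4a among the lower members. Those genes also needed adenine-fed libraries to pass.

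**Figure D1:**
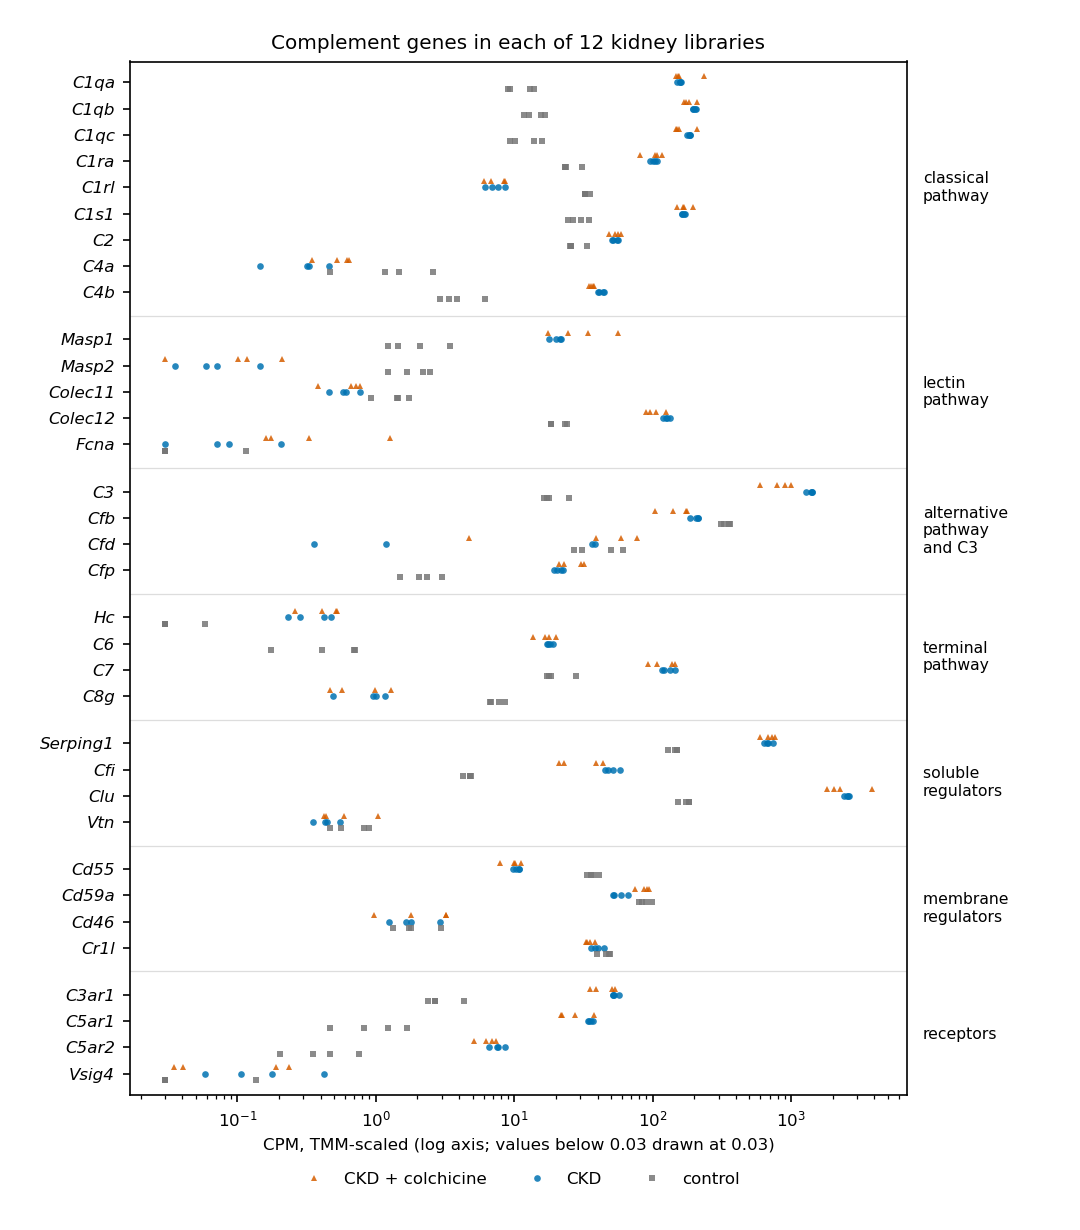
Level of each complement gene in every library, on a log axis in CPM (values below 0.03 are drawn at 0.03), with genes arranged by role and points coloured by group. Most components, soluble regulators and receptors lie higher in both adenine-fed groups than in control, while C1rl, Masp2, C8g and Cd55 lie lower in both.

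The rise was uneven across the cascade. On the log2 scale the median difference between CKD and control was 2.52 for 9 classical pathway genes, 0.70 for 4 lectin pathway genes, 1.24 for C3 and 3 alternative pathway genes, 3.45 for 4 terminal pathway genes, 2.84 for 4 soluble regulators and 4.14 for 3 receptors. The 4 membrane regulators had a median of -0.40, with 2 called lower and none higher by TMM. Scaling by library totals alone moved the median of all genes to 1.05, and the membrane regulators then counted 3 higher and 1 lower. Without Masp2 the lectin median was 2.58, and without Hc the terminal median was 2.66. No test compared the arms with each other.

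**Figure D2:**
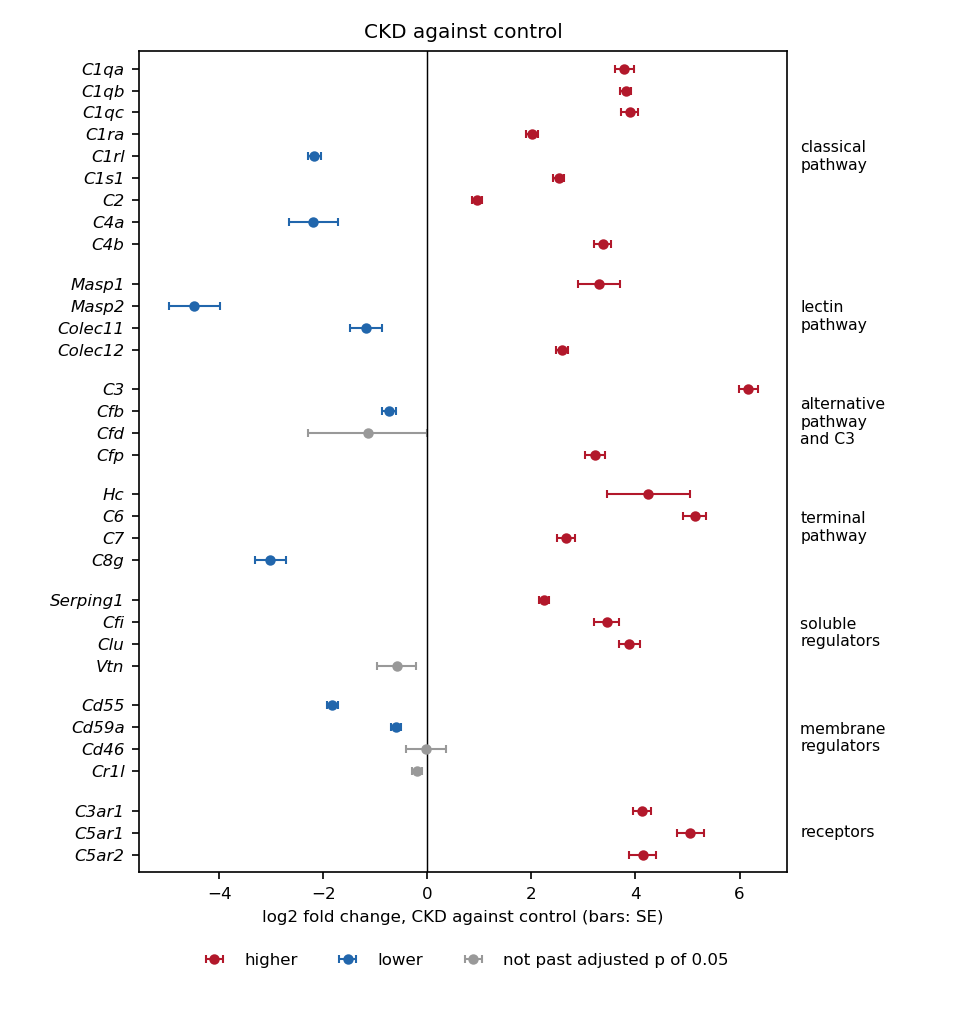
Log2 fold change of each tested complement gene in CKD against control, with bars of 1 standard error on either side and genes arranged by role. C3 has the largest rise at 6.17 and C8g lies at -3.02; Masp2, at -4.48, entered the test only through its control libraries. The membrane regulators lie at or below 0 by TMM, while with library totals alone Cd59a, Cr1l and Cd46 lie above 0.

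The promoters of 3 genes that lead the results are shown: C3, the member with the largest rise in CKD, C1qc, of the C1q chains, and Cd59a, the member called higher with colchicine. Each is the 250 bases before the RefSeq transcription start on the gene's own strand, in build GRCm38.p6, while the deposited values are on GRCm39. Capitals mark a match to a short motif: TTGCNNAA for C/EBP factors in C3, GAGGAAGT for PU.1 in C1qc, printed there as its reverse complement, and GAAANNGAA for interferon regulatory factors in Cd59a. The windows lie at chr17:57228137-57228386 on the minus strand for C3, chr4:136892915-136893164 on the minus strand for C1qc and chr2:104095551-104095800 on the plus strand for Cd59a.
C3: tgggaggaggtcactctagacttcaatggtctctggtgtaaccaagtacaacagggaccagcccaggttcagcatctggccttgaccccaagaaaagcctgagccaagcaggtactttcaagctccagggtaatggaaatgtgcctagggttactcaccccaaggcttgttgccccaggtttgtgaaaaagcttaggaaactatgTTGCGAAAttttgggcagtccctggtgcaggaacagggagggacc
C1qc: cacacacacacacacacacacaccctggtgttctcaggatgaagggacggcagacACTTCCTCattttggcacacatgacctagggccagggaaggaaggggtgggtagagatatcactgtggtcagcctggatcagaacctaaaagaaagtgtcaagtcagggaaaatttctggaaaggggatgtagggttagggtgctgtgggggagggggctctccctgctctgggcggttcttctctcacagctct
Cd59a: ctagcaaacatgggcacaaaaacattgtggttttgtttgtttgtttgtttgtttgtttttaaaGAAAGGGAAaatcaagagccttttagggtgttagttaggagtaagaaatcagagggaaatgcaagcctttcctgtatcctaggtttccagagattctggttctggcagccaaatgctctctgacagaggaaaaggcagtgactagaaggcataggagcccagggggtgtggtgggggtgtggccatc

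The marked bases begin 45 bases before the start in C3, 195 in C1qc and 187 in Cd59a. Of the 34 members, 24 matched an entry in the RefSeq promoter table, with 27 windows in all. On either strand, the C/EBP letters were present in 9.56% of all 32851 windows and in 4 of the 27 member windows (14.8%). These belong to C1rl, C1s1, C3 and C5ar2, and C1s1 and C5ar2 each have a further window without the letters. The PU.1 letters were present in 2.44% of all windows and in C1qc alone among the members (3.7% of member windows). The interferon regulatory factor letters were present in 7.13% of all windows and in C5ar1, Cd59a and Colec11 (11.1% of member windows). A STAT motif, TTCNNNGAA, was present in 7.02% of all windows and 11.1% of member windows, from 3 genes. An AP-1 motif, TGANTCA, was present in 6.75% of all windows and 7.41% of member windows, from 2 genes. An NF-kB motif, GGANTTTCC, was present in 1.07% of windows and in none of the 24. C1rl fell while the other 3 genes with C/EBP letters rose, so members that share a motif did not share a direction. A match of letters is a description of the window and not a binding site.

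The classical pathway rose in 7 of its 9 members. The 3 chains of C1q, the recognition molecule, moved by nearly the same factor. C1qa stood at 159, 158, 149 and 161 CPM in CKD, against 13.0, 14.0, 9.31 and 8.99 CPM in control, a 13.8-fold difference (log2 3.79 ± 0.17, SE; adjusted p = 1.26e-10). C1qb averaged 199 ± 5.04 CPM in CKD and 14.2 ± 2.30 CPM in control (SD, n = 4), 14.0-fold higher in CKD. C1qc averaged 183 ± 4.19 CPM in CKD and 12.3 ± 3.05 CPM in control, 14.8-fold higher. Every CKD library lay above every control library for each chain. C1q is made mainly by macrophages, and all 14 tested macrophage markers were also higher in CKD. Of them, Marco passed the filter only through the adenine-fed groups. Fcgr1, with 24, 30, 6 and 16 counts in control, needed adenine-fed libraries as well. The part of these markers in this result was not tested.

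The C1r and C1s proteases, which act with C1q, rose 4.04-fold and 5.75-fold. C1ra averaged 102 ± 4.97 CPM in CKD and 25.2 ± 3.78 CPM in control, and C1s1 averaged 167 ± 4.35 CPM in CKD and 29.1 ± 4.62 CPM in control (SD, n = 4), which are log2 differences of 2.01 ± 0.12 and 2.52 ± 0.11. C2, the protease of the classical C3 convertase, averaged 53.6 ± 2.64 CPM in CKD and 27.6 ± 4.13 CPM in control (log2 0.96 ± 0.10, adjusted p = 3.5e-07). C1rl, which encodes a C1r-like protease, ran the other way, with 6.12, 7.69, 8.54 and 6.92 CPM in CKD against 32.2, 32.3, 35.4 and 32.7 CPM in control. It was 4.52 times lower in CKD (log2 -2.18 ± 0.12, adjusted p = 5.45e-10).

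The C4 genes split. C4b, which encodes mouse C4, stood at 44.7, 40.0, 41.2 and 44.1 CPM in CKD against 2.91, 6.11, 3.35 and 3.88 CPM in control, 10.3-fold higher in CKD (log2 3.37 ± 0.16, adjusted p = 8.1e-11). C4a, which encodes the C4-like sex-limited protein, stood at 0.457, 0.321, 0.327 and 0.146 CPM in CKD against 0.466, 1.48, 1.16 and 2.61 CPM in control (log2 -2.20 ± 0.47, adjusted p = 0.000744). These 2 genes are near-identical copies, and the sources used here do not say how reads were shared between them, which makes the low C4a values uncertain.

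The lectin pathway showed no common direction, with Masp1 and Colec12 called higher, Colec11 called lower, Masp2 low in CKD through a filter-dependent test and Fcna untested. Masp1, a lectin pathway protease whose gene also encodes the isoform MASP-3, stood at 21.8, 21.4, 20.0 and 17.8 CPM in CKD against 3.44, 1.22, 1.44 and 2.09 CPM in control, 9.89-fold higher in CKD (log2 3.31 ± 0.40, adjusted p = 1.47e-05). Masp2, the protease that cleaves C4 and C2, stood at 0.0352, 0.0712, 0.0595 and 0.146 CPM in CKD against 2.45, 1.22, 2.19 and 1.68 CPM in control. Every CKD library lay below every control library. Masp2 entered the test only because its control libraries passed the filter, so its log2 value of -4.48 ± 0.49 is given as a description, with no test.

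The collectins also split. Colec12, a membrane-bound scavenger collectin of endothelial and stromal cells, averaged 126 ± 5.46 CPM in CKD and 21.0 ± 3.04 CPM in control (log2 2.58 ± 0.12, adjusted p = 4.73e-11). Colec11, a soluble collectin known from the kidney, averaged 0.605 ± 0.130 CPM in CKD and 1.39 ± 0.340 CPM in control (log2 -1.18 ± 0.31, adjusted p = 0.00332), a difference that shrank to -0.17 and was not called with library totals alone. Fcna, which encodes ficolin A, had 0, 2, 7 and 3 counts in CKD and 0, 0, 0 and 2 counts in control. Its ratio of CKD to control was 3.31, with an exact 95% interval of 0.737 to 30.5 that covers counting error only, so a difference was not detectable at this depth.

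C3, on which all routes converge, had the largest rise of the 32 members tested. It stood at 1394, 1288, 1423 and 1416 CPM in CKD, against 18, 25.1, 17.2 and 16.5 CPM in control. C3 was 71.8-fold higher in CKD (log2 6.17 ± 0.18, adjusted p = 1.48e-12). Cfp, which encodes properdin, the stabiliser of the alternative convertase, stood at 21.6, 22.4, 19.2 and 20.2 CPM in CKD against 2.04, 3.01, 2.33 and 1.51 CPM in control, 9.32-fold higher (adjusted p = 7.26e-10).

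Factor B, the protease partner of C3b, did not move with C3. Cfb stood at 205, 186, 212 and 213 CPM in CKD against 327, 358, 312 and 362 CPM in control, with no overlap; it was lower in CKD by TMM (log2 -0.74 ± 0.13, adjusted p = 0.000173) but had a difference of 0.27 with library totals alone, so its direction depends on the scaling. Relative to the median of all genes Cfb was lower either way. Cfd, which encodes factor D (adipsin), the protease that cleaves factor B, was not called (log2 -1.14 ± 1.14, adjusted p = 0.406). It stood at 36.5, 0.356, 1.19 and 38.3 CPM in CKD against 30.7, 61.3, 50.0 and 27.1 CPM in control, so that CKD replicates 2 and 3 held almost none.

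Adipoq, the adiponectin gene of fat cells, showed the same 2 CKD libraries low, with 11.3, 0.0712, 0.179 and 18.3 CPM in CKD and 5.83, 23.1, 12.2 and 8.41 CPM in control. In CKD with colchicine Cfd stood at 39.3, 58.7, 77.1 and 4.70 CPM and Adipoq at 11.6, 9.68, 15.4 and 1.29 CPM, with replicate 4 low for both. None of the 5 tested adipocyte markers was called in either comparison with CKD. Whether adipose tissue in the samples bears on Cfd was not tested.

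**Figure D3:**
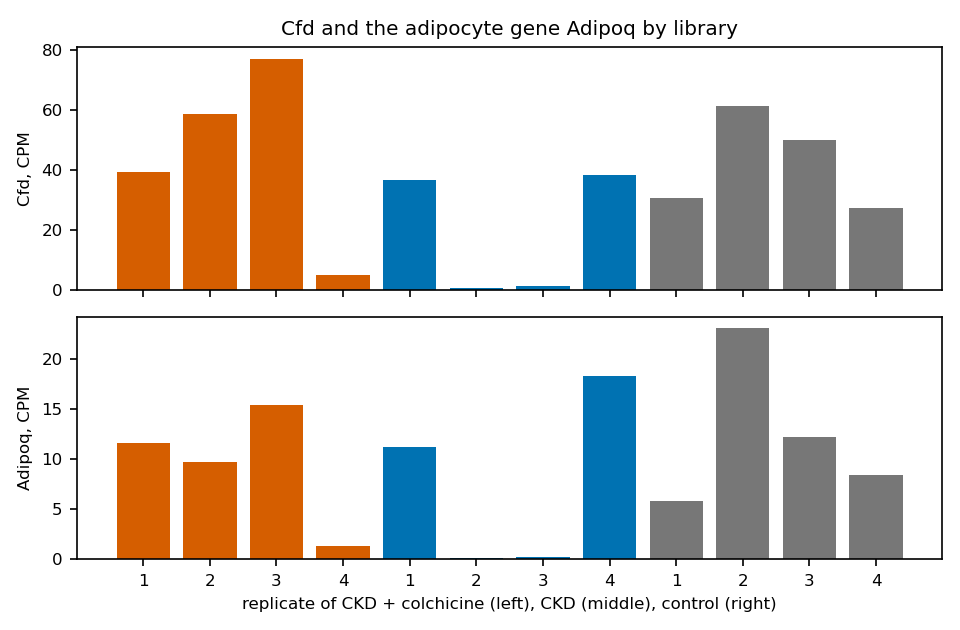
Bars of Cfd (upper panel) and of the fat cell gene Adipoq (lower panel) in each of the 12 libraries, in CPM, ordered as CKD with colchicine, CKD and control. CKD replicates 2 and 3 are the lowest for both genes, at 0.356 and 1.19 CPM of Cfd, followed by colchicine replicate 4 at 4.70 CPM.

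Among the terminal components, C6 and C7 rose. C6 stood at 18.2, 17.3, 17.6 and 18.9 CPM in CKD against 0.70, 0.713, 0.411 and 0.174 CPM in control, a 35.1-fold difference (log2 5.13 ± 0.22, adjusted p = 2.93e-11). C7, which anchors the forming complex in the membrane, averaged 129 ± 13.0 CPM in CKD and 20.4 ± 5.18 CPM in control (log2 2.66 ± 0.17, adjusted p = 5.65e-09). Both differences exceeded the spread between libraries, with no overlap. Only 2 control libraries of C6 reached the filter's minimum, so adenine-fed libraries were needed for it to pass. Hc, the gene for C5, was close to the limit of detection, at 0.422, 0.285, 0.476 and 0.234 CPM in CKD against 0.0583, 0, 0 and 0 CPM in control. Summed over libraries it had 44 counts in CKD and 1 in control, a ratio of 24.3 with an exact 95% interval of 4.14 to 981. The interval covers counting error only, and since Hc entered the test only through the adenine-fed groups, its call is not used here.

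Of the C8 chains, the gamma and alpha chains fell, while C8b, the beta chain, had 2 counts in CKD and 1 in control and was not tested. C8g, which encodes the gamma chain of C8, stood at 0.492, 0.962, 1.01 and 1.17 CPM in CKD against 8.51, 7.79, 6.78 and 6.72 CPM in control, 8.12 times lower in CKD (log2 -3.02 ± 0.30, adjusted p = 2.81e-07). C8a, the alpha chain, which stands outside the 34 genes, stood at 0.281, 0.285, 0.625 and 0.321 CPM in CKD against 29.1, 31.6, 28.2 and 27.4 CPM in control. With 8, 8, 21 and 11 counts in CKD and fewer with colchicine, C8a passed the filter only because of its control libraries. Its log2 value of -6.23 ± 0.20, 74.8 times lower in CKD, is thus given as a description, with no test. Among the terminal genes, C6 and C7 were called higher in CKD and C8g was called lower. All 10 proximal tubule markers were lower in CKD as well, and their part in the fall of any member was not tested.

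Of the soluble regulators, 3 of 4 rose. Clu, which encodes clusterin, a chaperone that also blocks the terminal complex, stood at 2591, 2423, 2551 and 2622 CPM in CKD against 183, 183, 153 and 173 CPM in control (log2 3.88 ± 0.20, adjusted p = 4.18e-10). Serping1, the C1 inhibitor, averaged 681 ± 40.0 CPM in CKD and 144 ± 10.7 CPM in control, 4.73-fold higher in CKD (log2 2.24 ± 0.09). Cfi, the protease that inactivates C3b and C4b, stood at 47.6, 45.6, 58.0 and 51.6 CPM in CKD against 4.84, 4.28, 4.79 and 4.75 CPM in control, 10.9-fold higher (log2 3.44 ± 0.23, adjusted p = 1.17e-08). Vtn, which encodes vitronectin, was not called: it stood at 0.352, 0.427, 0.447 and 0.555 CPM in CKD and at 0.816, 0.560, 0.890 and 0.464 CPM in control, overlapping (log2 -0.59 ± 0.38, adjusted p = 0.183).

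None of the 4 membrane regulators was called higher by TMM, while 3 were with library totals alone. Cd55, which encodes decay-accelerating factor, averaged 10.4 ± 0.486 CPM in CKD and 37.0 ± 3.22 CPM in control (SD, n = 4), 3.55 times lower in CKD (log2 -1.83 ± 0.10, adjusted p = 4.57e-10). Cd59a, which encodes an inhibitor of the membrane attack complex, stood at 52.5, 66.6, 51.3 and 59.4 CPM in CKD against 98.1, 79.1, 89.0 and 83.9 CPM in control; it was lower in CKD by TMM (log2 -0.61 ± 0.10, adjusted p = 6.2e-05), though its difference was 0.41 with library totals alone. Cr1l, the rodent regulator Crry, stood at 40.5, 35.7, 44.2 and 38.5 CPM in CKD and 39.5, 48.1, 45.7 and 49.4 CPM in control and was not called (log2 -0.20 ± 0.09, adjusted p = 0.0558). Cd46, the membrane cofactor protein, stood at 1.65, 2.92, 1.79 and 1.26 CPM in CKD and 1.34, 1.73, 2.94 and 1.80 CPM in control and was not called (log2 -0.03 ± 0.38, adjusted p = 0.949).

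Receptors for the complement peptides rose together, 3 of 3 tested. C5ar1, the main C5a receptor of neutrophils and macrophages, stood at 35.7, 34, 37.1 and 34.5 CPM in CKD against 1.69, 1.22, 0.822 and 0.464 CPM in control, 33.2-fold higher in CKD (log2 5.05 ± 0.26, adjusted p = 4.55e-10). C5ar2, the second C5a receptor, stood at 7.63, 8.62, 6.58 and 7.51 CPM in CKD against 0.350, 0.204, 0.753 and 0.464 CPM in control, 17.6-fold higher. C3ar1, the C3a receptor, stood at 52.6, 51.5, 56.9 and 51.3 CPM in CKD against 4.31, 2.70, 2.40 and 2.67 CPM in control, 17.5-fold higher (log2 4.13 ± 0.18). No CKD library overlapped control for any of these receptors. C5ar1 reached the filter's minimum in 3 control libraries and C5ar2 in 1, so adenine-fed libraries were needed for both to pass. The 10 neutrophil markers listed summed to 48.0 to 113 CPM in CKD with colchicine and 86.8 to 113 CPM in CKD. In control they summed to 2.46 to 4.64 CPM. The 7 tested were all higher in CKD, but of these Cxcr2, Retnlg, Mmp8 and Ltf passed the filter only through the adenine-fed groups. S100a8, with 8, 11, 5 and 13 counts in control, needed adenine-fed libraries as well. So did S100a9, with 19, 8, 6 and 30. Ly6g, untested, had 0, 3, 2 and 1 counts in CKD and 0, 2, 0 and 1 in control, a ratio of 1.10. Its exact 95% interval of 0.236 to 6.82 covers counting error only. Ngp, also untested, had 0, 4, 2 and 2 counts in CKD and 3, 1, 1 and 0 in control. Elane, untested too, had 0, 0, 3 and 1 counts in CKD and 0, 0, 1 and 0 in control. The part of these markers in the receptors' rise was not tested. Vsig4, a complement receptor of resident macrophages, had 12, 3, 6 and 2 counts in CKD and 0, 0, 2 and 0 in control, a ratio of 6.35 with an exact 95% interval of 1.57 to 55.6 that covers counting error only. In the edgeR fit without a low-count filter Vsig4 was not called (adjusted p = 0.0705).

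Per kilobase of exon, which allows levels to be compared between genes, the order of the members also differed between groups. In CKD, Clu led at 741 ± 25.4 CPM per kilobase, followed by Serping1 at 293 ± 17.2, C3 at 268 ± 12.2 and C1qb at 183 ± 4.64 (SD, n = 4). In control, Cfb led at 120 ± 8.54 CPM per kilobase, followed by Serping1 at 61.9 ± 4.61, Clu at 50.4 ± 4.17 and Cd59a at 48.3 ± 4.48. In CKD the levels of Serping1 and C3 lay within 2 SD of each other, as did those of Clu and Cd59a in control. These levels are a description, with exon lengths from GENCODE M21 on GRCm38.

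Other complement genes also went both ways. Of 30 further symbols listed, 29 were found and 20 tested, and 12 were higher and 6 lower in CKD. These are 60 and 30% of the 20, where 34.1 and 33.4% of all genes tested were higher and lower. The lower share lies near the background. With library totals alone, a setting in which this list was not counted, 74.0% of all genes were higher. The subunits of the iC3b receptors rose, with log2 differences of 5.73 ± 0.26 for Itgam (CD11b), 4.52 ± 0.18 for Itgax (CD11c) and 4.27 ± 0.10 for their shared partner Itgb2 (CD18). Csmd1, a membrane-bound inhibitor, differed by 2.52 ± 0.28 and Lrp1, an endocytic receptor, by 2.17 ± 0.09. Smaller called rises were found for Cd93 at 1.30 ± 0.15 and Susd4 at 0.86 ± 0.13. C4bp, the C4b-binding protein, had 3, 0, 0 and 2 counts in control, and C1s2 had 2, 3, 2 and 2. Both passed the filter only through the adenine-fed groups. Their log2 differences of 3.28 ± 0.64 and 2.10 ± 0.39 are given as descriptions, with no test. The 12 genes called higher include these and others that passed in this way. The 6 called lower include C8a and Cr2, which needed their control libraries to pass. Mbl1, a mannose-binding lectin, Cr2, the C3d receptor of B cells, and Cd59b, the copy of Cd59a, were lower, with log2 differences of -1.42 ± 0.48, -1.48 ± 0.49 and -1.05 ± 0.24. C1qbp, a mitochondrial protein that also binds C1q, differed by -0.96 ± 0.08.

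Few members differed between CKD with colchicine and CKD. In edgeR's test 1 of the 32 tested, Cd59a, was higher with colchicine and 3, C3, Cfb and Cfi, were lower. The 4 called members are 12.5% of the 32, and 15% of all genes tested were called in this comparison, of which 6.79% were higher and 8.24% lower. That share of the members lies near the background. Libraries of the 2 groups did not overlap for 5 members, C3, Cfb, Cfi, Cd59a and C4b, where 18.2% of all genes did not overlap. The median log2 difference was -0.01 over the members and 0.03 over all genes tested. DESeq2 and limma-voom called the same 4 members.

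**Figure D4:**
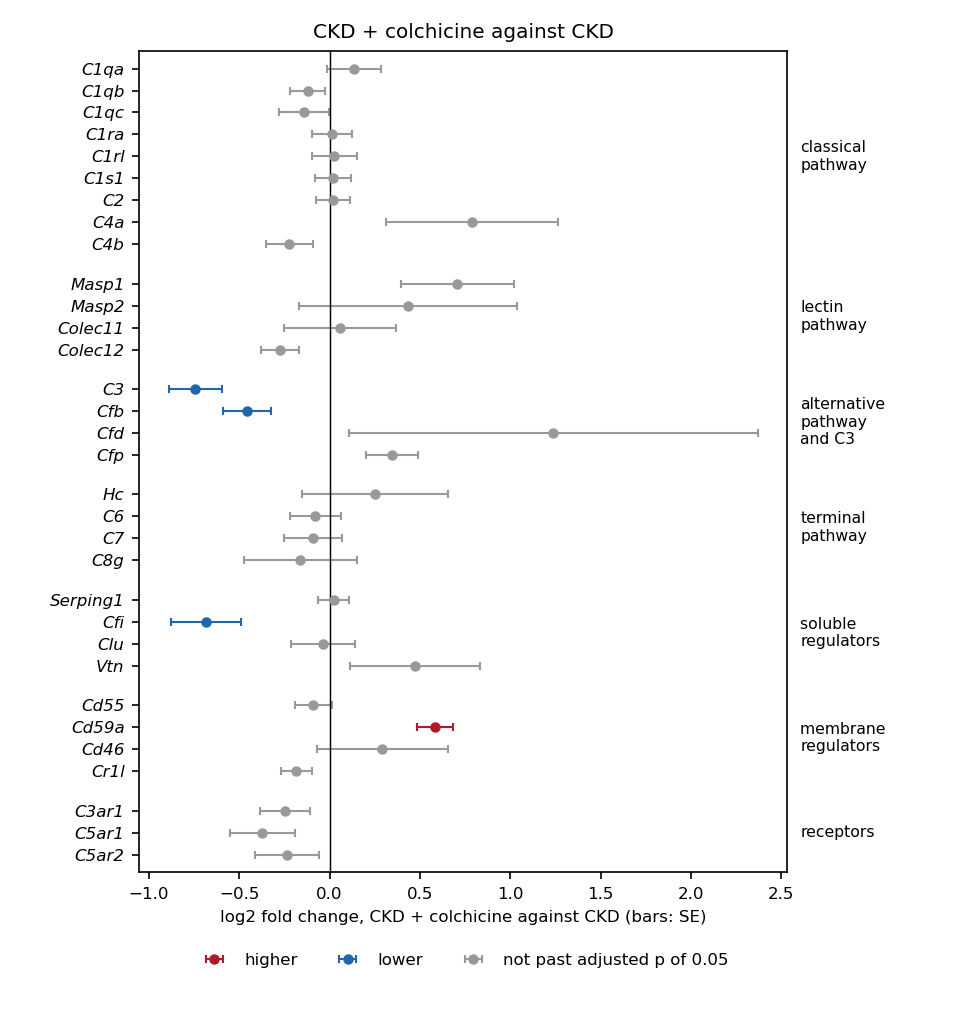
Log2 fold change of each tested complement gene in CKD with colchicine against CKD, with bars of 1 standard error on either side and genes arranged by role. C3, Cfb and Cfi lie below 0 and Cd59a above it among the called members, while Cfd at 1.24, C4a at 0.79 and Masp1 at 0.71 were not called.

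C3 was lower with colchicine, though still far above control. It stood at 789, 601, 909 and 999.5 CPM in CKD with colchicine, against 1394, 1288, 1423 and 1416 CPM in CKD. The highest colchicine library lay below the lowest CKD library, and C3 was 1.67 times lower (log2 -0.74 ± 0.15, adjusted p = 0.00643). Colchicine replicate 1, which shares the labelled 2% adenine with CKD, stood at 789 CPM. The call held in every alternative run and without each library in turn, with log2 differences from -0.99 to -0.62.

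Cd59a was the member called higher. It stood at 74.3, 90.4, 93.3 and 86.3 CPM in CKD with colchicine, against 52.5, 66.6, 51.3 and 59.4 CPM in CKD, with no overlap. It was 1.5-fold higher with colchicine (log2 0.58 ± 0.10, adjusted p = 0.00306), and the call held in every alternative run and without each library in turn. Against control, where Cd59a averaged 87.6 ± 8.11 CPM, the colchicine group at 86.1 ± 8.36 CPM differed by a log2 value of -0.02 ± 0.10 by TMM (adjusted p = 0.837) and by 1.01 with library totals alone.

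Cfb and Cfi were called lower less firmly. Cfb stood at 175, 103, 141 and 176 CPM in CKD with colchicine and at 205, 186, 212 and 213 CPM in CKD (log2 -0.46 ± 0.13, adjusted p = 0.0349). Cfi stood at 43.9, 21.2, 22.8 and 38.7 CPM in CKD with colchicine and at 47.6, 45.6, 58.0 and 51.6 CPM in CKD, 1.61 times lower (log2 -0.68 ± 0.19, adjusted p = 0.0336). For both, the colchicine libraries lay below all CKD libraries, with replicate 2 the lowest. Both calls were lost, with adjusted p between 0.05 and 0.0987, without colchicine replicate 2 or 3 or without any one CKD library. Both were also lost when only the 8 libraries of the comparison were fitted, with adjusted p of 0.0668 for Cfb and 0.0693 for Cfi, and with a slope on the labelled adenine, with 0.142 and 0.287. The call of Cfi was lost without a low-count filter too (adjusted p = 0.105). Neither changed its direction in any of these.

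**Figure D5:**
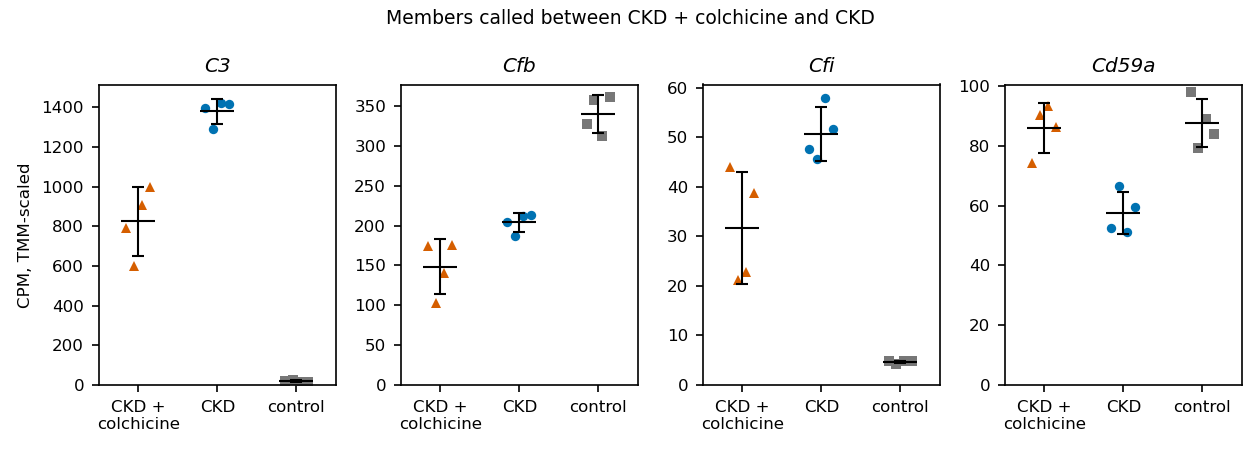
Levels of C3, Cfb, Cfi and Cd59a in each library, in CPM, for CKD with colchicine, CKD and control, with a line at each group mean and bars of 1 SD (n = 4). By TMM, C3 and Cfi in the colchicine group lie between CKD and control, Cfb lies farther from control than CKD does, and Cd59a overlaps control. With library totals alone, the log2 difference of the colchicine group from control is -0.17 for Cfb and 1.01 for Cd59a.

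Most of the cascade was not called with colchicine. None of the 9 classical pathway genes was called by edgeR, DESeq2 or limma-voom, and none had an unadjusted edgeR p below 0.05. C1qa averaged 172 ± 41.2 CPM in CKD with colchicine and 157 ± 5.19 CPM in CKD (SD, n = 4), with replicate 2 at 234 CPM above the other colchicine libraries. C4b stood at 37.5, 37.3, 36.0 and 34.8 CPM in CKD with colchicine and at 44.7, 40.0, 41.2 and 44.1 CPM in CKD; the libraries did not overlap, but the difference of -0.22 ± 0.13 was not called (adjusted p = 0.241). C4a differed by 0.79 ± 0.47 and was not called.

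No lectin pathway gene was called by any of the 3 tools, while 2, Colec12 and Masp1, had an unadjusted edgeR p below 0.05. Colec12 stood at 125, 106, 95.8 and 89.4 CPM in CKD with colchicine and 133, 125, 126 and 120 CPM in CKD (log2 -0.27 ± 0.11, adjusted p = 0.0929). Masp1 stood at 33.8, 56.0, 24.5 and 17.6 CPM in CKD with colchicine and 21.8, 21.4, 20.0 and 17.8 CPM in CKD (log2 0.71 ± 0.31, adjusted p = 0.141). Fcna, untested, had 47, 14, 8 and 5 counts in CKD with colchicine and 0, 2, 7 and 3 counts in CKD, with replicate 1 holding most of the counts. Its ratio of CKD with colchicine to control was 16.1, with an exact 95% interval of 4.30 to 135 for counting error only. Properdin was not called either, with Cfp at 30.5, 31.7, 21.0 and 22.9 CPM in CKD with colchicine and a log2 difference of 0.35 ± 0.15 from CKD (adjusted p = 0.117). Cfd differed by 1.24 ± 1.13 (adjusted p = 0.469), a standard error nearly as large as the difference.

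Of the terminal pathway genes and the receptors, none was called by the 3 tools and none had an unadjusted edgeR p below 0.05. C6 stood at 13.8, 17.8, 20.0 and 16.6 CPM in CKD with colchicine, overlapping the 17.3 to 18.9 CPM of CKD. C5ar1 stood at 37.8, 27.3, 22.0 and 22.2 CPM in CKD with colchicine, where 3 of 4 libraries lay below the 34 to 37.1 CPM of CKD (log2 -0.37 ± 0.18, adjusted p = 0.167). C3ar1 stood at 53.4, 51.2, 39.2 and 35.3 CPM in CKD with colchicine (log2 -0.24 ± 0.14, adjusted p = 0.228), and C5ar2 differed by -0.24 ± 0.18. Clu stood at 3831, 1806, 2044 and 2252 CPM in CKD with colchicine, so that replicate 1 lay above all CKD libraries and the other 3 below them (log2 -0.04 ± 0.18, adjusted p = 0.902).

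The number of calls depended on colchicine replicate 1. Without it, 8 members were called in place of 4, and the share of all genes called was 35.3% in place of 15%, so that the 25.0% of members called lay below it. The members added were Colec12 at -0.38 (adjusted p = 0.00504), Clu at -0.33 (adjusted p = 0.0107), Cr1l at -0.23 (adjusted p = 0.0435) and C5ar1 at -0.57 (adjusted p = 0.00573), all lower with colchicine. With all libraries Cr1l stood at 38.3, 35.3, 32.9 and 33.5 CPM in CKD with colchicine and was not called (log2 -0.18 ± 0.09, adjusted p = 0.158). Replicate 1 is also the colchicine library whose labelled adenine equals that of CKD. When the labelled adenine was fitted as a slope and the comparison read at 2%, C3 and Cd59a stayed called and Cfp was called higher by 0.61 (adjusted p = 0.0411).

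Of the 20 other complement genes tested, 5 were called lower and 1 higher with colchicine. These are 25 and 5% of the 20, where 8.24% of all genes tested were lower and 6.79% higher. Csmd1 averaged 2.46 ± 0.294 CPM in CKD with colchicine and 5.57 ± 0.769 CPM in CKD (log2 -1.18 ± 0.24, adjusted p = 0.0067). The integrin chains Itgb2 and Itgax differed by -0.37 ± 0.08 and -0.45 ± 0.14. C8a differed by -2.28 ± 0.37, from 4, 2, 5 and 1 counts with colchicine and 8, 8, 21 and 11 in CKD. C8a is among the 5 called lower but passed the filter only through control, so its value is a description. Susd4, which encodes an inhibitor of the C3 convertase, was the one called higher, at 0.40 ± 0.12 (adjusted p = 0.0372). Beside these, 5 of 10 proximal tubule markers and 5 of 8 distal nephron and collecting duct markers were lower with colchicine, and none was higher. The distal list summed to 866 to 1269 CPM in CKD with colchicine, 1468 to 1769 CPM in CKD and 2535 to 3174 CPM in control. Of 14 macrophage markers 6 were lower and none higher, 2 of 10 injured tubule markers were lower and 3 higher, and 4 of 10 fibroblast markers were higher. The summed injured tubule markers were 8963 to 15367 CPM in CKD with colchicine, 16143 to 18959 CPM in CKD and 806 to 858 CPM in control. The part of these marker lists in the differences of C3, Cfb, Cfi or Cd59a was not tested.

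Kidneys of the colchicine group also differed from control in most members. Of the 32 members, 20 were higher and 8 lower in CKD with colchicine than in control, where 37.1% of all genes tested were higher and 33.4% lower, 70.5% in all. Without Masp2 and Hc, which passed the filter through 1 side only, 19 of 30 members were higher and 7 lower. These counts still hold C6, C5ar1, C5ar2 and C4a, which also needed adenine-fed libraries to pass. With library totals alone 24 members were higher and 4 lower, 75.0 and 12.5% of the 32, where 77.1 and 10.9% of all genes were higher and lower, so that the higher members then lay near the background. The 2 comparisons with control share the control libraries. The libraries did not overlap for 27 members, against 62.5% of all genes, and the median log2 difference was 2.43 over the members and 0.10 over all genes. C3 was 42.9-fold higher than in control (log2 5.42 ± 0.18), where its difference in CKD was 6.17 ± 0.18. Cfi differed from control by 2.76 ± 0.23 with colchicine and 3.44 ± 0.23 in CKD. Cfb was lower than in control by a larger margin with colchicine than without, 2.29 times (log2 -1.19 ± 0.13, adjusted p = 1.25e-06), and with library totals alone its difference was -0.17 and not called. C6, C5ar1 and Masp1 differed from control by 5.06 ± 0.22, 4.68 ± 0.26 and 4.01 ± 0.40, and Hc had 65 counts in CKD with colchicine, a ratio to the control's single count of 28.3 with an exact 95% interval of 4.90 to 1135. Vsig4 had 7, 10, 2 and 1 counts in CKD with colchicine, a ratio to control of 4.35 with an exact 95% interval of 1.06 to 38.4, and was not called in the fit without a low-count filter (adjusted p = 0.178). Cr1l, not called in CKD, was called lower than control with colchicine by TMM (log2 -0.38 ± 0.09, adjusted p = 0.00115), though its difference was 0.65 with library totals alone. C4a was lower by -1.41 ± 0.44 (adjusted p = 0.00994), but the call was lost without control replicate 4 (adjusted p = 0.0683), with a slope on labelled adenine (adjusted p = 0.151) and with library totals alone, where the difference was -0.38 (adjusted p = 0.425).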

How the data were processed

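Whole kidney RNA of 12 libraries was isolated with RNAiso Plus and made into libraries with the CORALL V2 kit (labels' protocols). The submitters' processing notes name fastp, STAR, Salmon and build GRCm39; for versions, annotation, strand setting and molecular identifiers nothing is given in these sources. Deposited values are gene-level estimated counts (expected counts) that the authors give as whole numbers, and no further rounding was needed. Every value from 1000000 up was a multiple of 10.

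Groups and replicate numbers came from the sample titles. The members and all gene lists were chosen with earlier results of these data known. All members are reported; single library values are given for those with the largest differences, those called between the adenine groups and those not called against control. Further complement genes are named where called with a log2 difference of 1 or more, apart from a few that are not reported here.

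Counts were tested with edgeR 4.0.16 in R 4.3.3. Genes passed filterByExpr at a minimum count of 10, libraries were scaled by TMM, and all 12 libraries entered 1 robust quasi-likelihood fit of 3 group means. P-values are two-sided and Benjamini-Hochberg adjusted over the 17841 genes tested, with a threshold of 0.05. The standard error (SE) of a log2 fold change was derived from the F statistic. With 1 to 3 counts in control, ratios are given with an exact 95% binomial interval. Alternatives comprised DESeq2 1.42.0, limma-voom (limma 3.58.1), other scalings, no low-count filter, a fit of 8 libraries, the replicate number as a block, a slope on labelled adenine and leaving out each library. Only the main edgeR model was run on simulated counts. Few genes were changed in them, so the simulation does not check the scaling where most genes differ. No 2 libraries were duplicates by a chi-square test of their counts. Promoters are from RefSeq on GRCm38.p6, a different build from that of the counts. All libraries carry batch 1 in the labels.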

Additional observations from a re-analysis of the deposited data

Results flagged for a closer look

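In all, 102 groups of 4 libraries were examined, 1 for each of the 34 genes in each group. Of these, 13 had a single library far from the other 3. The measure's chance rate of about 1 in 20 assumes continuous values, so the 13 are not set against it. In control, Fcna, Hc and Vsig4 were at 0 in the other 3 libraries, where any count is flagged. With colchicine, replicate 2 was high for C1qa at 234 CPM and C1qc at 209 CPM, and replicate 1 was high for Fcna at 1.28 CPM, from 47 counts. In control, replicate 1 was high for C1ra at 30.9 CPM, C7 at 28.1 CPM, C3ar1 at 4.31 CPM and Hc at 0.0583 CPM, the last from 1 count. Control replicate 2 was high for C3 at 25.1 CPM and low for Cfi at 4.28 CPM. Control replicate 3 was high for C1rl at 35.4 CPM and for Vsig4 at 0.137 CPM, from 2 counts. Control replicate 4 was high for C2 at 33.8 CPM and for Fcna at 0.116 CPM, from 2 counts. Leaving aside Fcna and Vsig4, which were not tested, and Hc, whose call is not used, the genes kept their calls against control without these libraries. No CKD library stood apart by this measure.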

How the results depend on the processing

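Between CKD and control, 584 of 587 alternative values of the called members kept their direction and call. Scaling by library totals alone gave 5 members lower in CKD (8 by TMM) and 4 lower in CKD with colchicine than in control (8 by TMM). It turned the difference between CKD and control to 0.27 for Cfb, 0.41 for Cd59a, 0.81 for Cr1l, 0.97 for Cd46 and 0.41 for Vtn, and between colchicine and control to 1.01 for Cd59a and 0.65 for Cr1l. Upper-quartile scaling turned Cd46 to 0.10 and, with colchicine, Clu to 0.011 against CKD and Cd59a to 0.18 against control. Without a low-count filter Cd46 was 0.025 in CKD and Cd59a 0.021 with colchicine against control.

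Between colchicine and CKD, the fit of 8 libraries called 2 members, 1 of them lower. The adenine slope called 2 higher and 1 lower, and turned Clu to 0.28 and C3ar1 to 0.062. Leaving out single libraries gave 2 to 8 called members, 1 to 7 of them lower. It gave -0.33 to 0.088 for Clu between colchicine and CKD, -0.31 to 0.22 for Cd46 between CKD and control and -0.074 to 0.038 for Cd59a between colchicine and control. The cause was not tested.

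With the replicate number as a block, no member's call changed in the comparison of colchicine with CKD. Same-numbered libraries had correlations of -0.279 to 0.189, so the numbers were not taken as pairs. Depth limits Fcna, Vsig4, Hc, Masp2 and C4a, which lie near a few counts per library in at least one group. It also limits C6 at 12, 14, 6 and 3 counts in control and C5ar2 at 6, 4, 11 and 8. Vtn is low as well, at 14, 11, 13 and 8 counts in control.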
